A study of Mus musculus with 6 samples.

Results

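Adipokines are proteins that fat tissue secretes into the blood, and 9 genes of this kind were followed in interscapular brown adipose tissue (iBAT): *Lep* (leptin) and its receptor *Lepr*, *Adipoq* (adiponectin), *Retn* (resistin), *Cfd* (adipsin), *Rbp4* (retinol binding protein), *Nampt* (visfatin), *Apln* (apelin), and *Rarres2* (chemerin). They were chosen by name, through the RefSeq accession that the array gives for each probe, out of 20630 gene symbols with usable probes. The samples were iBAT of male C57BL/6 mice aged 16 weeks, 3 of the genotype control and 3 of the genotype *ob/ob*, each on 1 single-dye Agilent whole-genome mouse array. The comparison asks how brown fat of leptin-deficient obese mice differs from that of control mice. The labels name neither the *ob* allele nor the diet, and they leave unsaid whether the controls were littermates and whether an array holds 1 mouse or a pool, so a p value here measures only the spread between arrays.

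Leptin is made mainly by white adipocytes in proportion to their lipid store and acts on its receptor in the hypothalamus to curb appetite and permit thermogenesis. Adiponectin raises insulin sensitivity, and its blood level usually falls in obesity, whereas resistin, retinol binding protein, apelin, and chemerin have been tied to insulin resistance, vessel growth, or inflammation. Adipsin is the serine protease that starts the alternative pathway of complement. Brown adipocytes express the adipocyte genes of this group, while *Lep* is usually low in active brown fat and higher in white-like fat.

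No *ob* allele could be read from the arrays. The usual *ob* allele is a point change in the coding sequence, which leaves a transcript in place, so the *Lep* signal does not check the genotype labels.

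In this tissue *Lep* and *Apln* were higher in all 3 *ob/ob* arrays than in any control array, by 4.21-fold and 2.99-fold, and *Lepr* and *Retn*, by their brightest probes, were lower without overlap by 1.84-fold and 3.96-fold. *Adipoq* had nearly the same mean in both groups and arrays that differed widely within each. *Cfd* was 8.52-fold lower in *ob/ob* iBAT on average, with overlap between the groups. None of the 9 genes passed an adjusted p under 0.05 in limma, nor did any other probe (0% of 35448), and 2 of 9 had an unadjusted p under 0.05, as did 3.51% of all probes tested. An exact permutation test of 3 arrays against 3 cannot go below p = 0.10.

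The stretch before the transcription start is shown for *Lep* and *Apln*, the pair that was higher without overlap, and for *Adipoq*, which differed least. Sequences are RefSeq promoters of mouse assembly GRCm38.p6, from 250 bases before the start to 50 bases after it, 5′ to 3′ along the gene's own strand. Such an entry was found for 8 of the 9 genes. Capitals mark matches to the motifs searched.
Lep, chr6:29059971-29060270, plus strand: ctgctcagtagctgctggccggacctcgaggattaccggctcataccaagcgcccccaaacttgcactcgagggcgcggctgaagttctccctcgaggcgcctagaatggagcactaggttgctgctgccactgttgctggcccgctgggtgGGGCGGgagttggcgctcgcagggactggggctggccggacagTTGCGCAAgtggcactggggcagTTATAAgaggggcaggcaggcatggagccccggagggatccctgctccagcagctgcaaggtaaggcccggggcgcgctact
Apln, chrX:48034804-48035103, minus strand: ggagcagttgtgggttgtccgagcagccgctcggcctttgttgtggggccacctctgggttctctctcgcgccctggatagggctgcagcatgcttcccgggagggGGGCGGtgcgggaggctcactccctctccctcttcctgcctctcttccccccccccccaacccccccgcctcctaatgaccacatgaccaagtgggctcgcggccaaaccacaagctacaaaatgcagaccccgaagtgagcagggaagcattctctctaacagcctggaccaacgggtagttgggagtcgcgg
Adipoq, chr16:23146286-23146585, plus strand: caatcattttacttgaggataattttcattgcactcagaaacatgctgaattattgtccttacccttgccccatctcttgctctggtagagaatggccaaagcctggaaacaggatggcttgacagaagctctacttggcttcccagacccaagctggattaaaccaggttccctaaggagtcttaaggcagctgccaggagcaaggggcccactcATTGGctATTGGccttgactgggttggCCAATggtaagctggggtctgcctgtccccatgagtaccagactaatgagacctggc
The motifs searched on both strands were TATAA, the core of a TATA box (in 24.9% of 32851 mouse promoters of the same length), CCAAT (37.4%), GGGCGG, the GC box (35.7%), TTGCGCAA, the palindrome bound by C/EBP factors (0.183%), CACGTG, the E-box (7.15%), and the direct repeat bound by PPAR and RXR, AGGTCA repeated with 1 base between the copies (0.0396%). The *Lep* promoter held a GC box with its first base 98 bases before the start, the C/EBP palindrome at 55 bases, and a TATA core at 31 bases that overlaps its own reverse match. The *Apln* promoter held a GC box at 144 bases, and the *Adipoq* promoter held 3 CCAAT boxes at 34, 27, and 7 bases, the first 2 read on the opposite strand. A match is a description of these letters and does not show a bound site.

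The arrays did not fall into their labeled groups. Over the 35448 probes tested, control 3 had a Spearman correlation of 0.915 and 0.944 with *ob/ob* 1 and *ob/ob* 2, compared with 0.642 and 0.730 with control 1 and control 2. Conversely, *ob/ob* 3 stood nearest to control 1 (0.858) and far from *ob/ob* 1 and *ob/ob* 2 (0.573 and 0.488). The labels were kept as given. Whether any were exchanged cannot be told from the files, and every difference between the groups rests on them. The differences of the 9 genes, of the pathway genes called, and of the marker lists are therefore given with control 3 and *ob/ob* 3 and without them. Leaving out these arrays, which resembled the other group, narrows the spread within groups by construction. In that fit 22.8% of all probes passed an adjusted p under 0.05 as higher and 23% as lower. Over the 6 arrays the share was 0%. As a check of tissue, all 10 brown adipocyte markers were detected on at least 3 arrays. *Elovl3* was detected on the 3 control arrays and on no *ob/ob* array, and *Lhx8* on 3 of the 6 arrays. *Ucp1*, the uncoupling protein of brown fat, read 13.05, 11.72, and 9.48 in the controls and 8.93, 9.12, and 10.03 in *ob/ob* iBAT on the log2 scale. Markers of other cells were also present: the median log2 signal of 10 skeletal muscle genes stood at 10.22, 10.74, and 7.79 on control 1, 2, and 3 and at 6.37, 6.46, and 11.22 on *ob/ob* 1, 2, and 3. The 10 adipocyte markers had a similar pattern, with medians of 11.91, 11.29, and 9.20 in the controls and 9.40, 9.15, and 12.69 in *ob/ob* arrays. In bulk tissue, fewer cells of a type and less RNA per cell cannot be told apart.

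**Figure D1:**
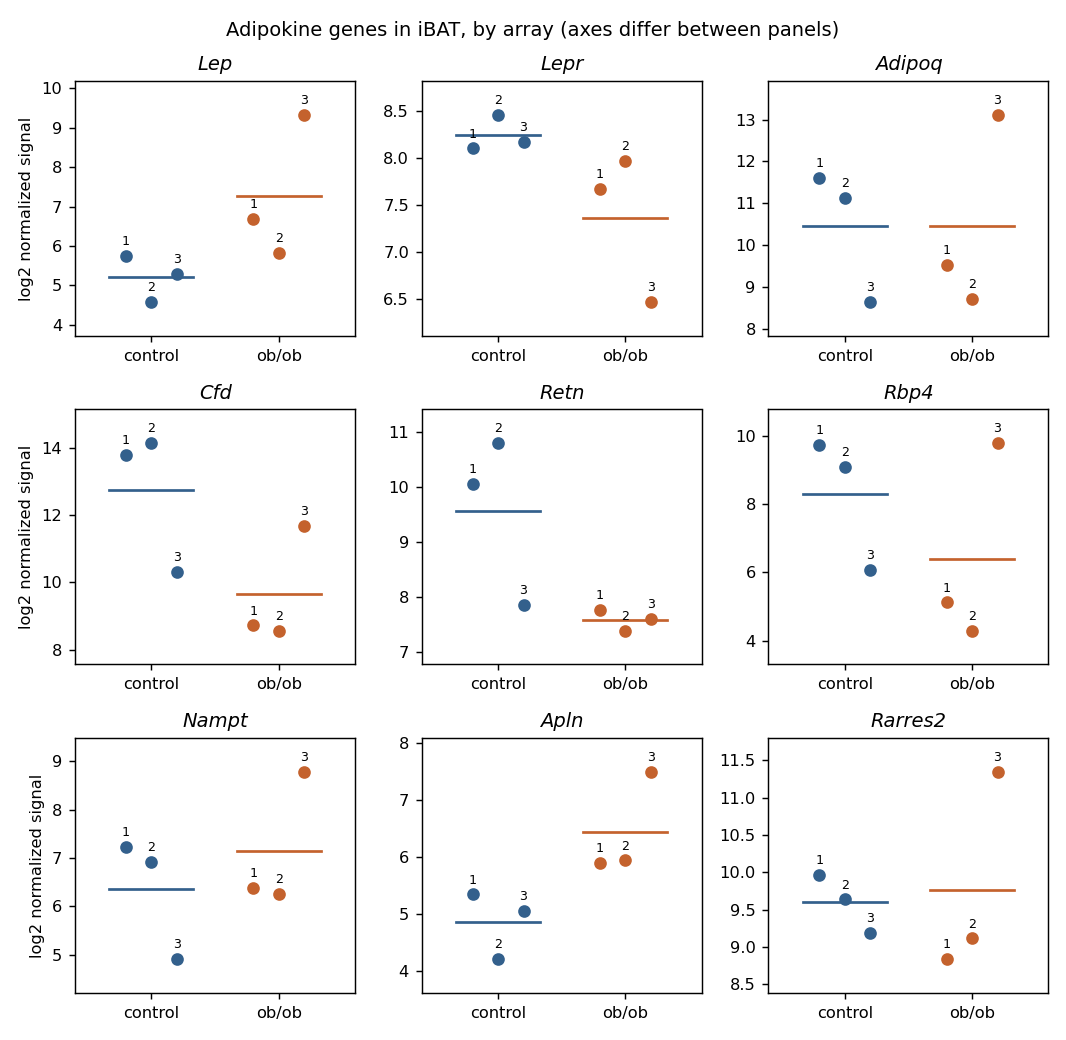
The log2 normalized signal of the brightest probe of each of the 9 genes on the 6 arrays, 1 panel per gene with its own axis. Points are arrays, labeled with their replicate number, and lines are group means. *Lep* and *Apln* are higher and *Lepr* and *Retn* lower in *ob/ob* without overlap, and *ob/ob* 3 is the highest of the 6 arrays for 6 genes.

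Values below are log2 normalized signals of a gene's brightest probe, and differences are *ob/ob* minus control. *Lep* read 5.74, 4.57, and 5.30 in control 1, 2, and 3 (5.21 ± 0.59, SD, n = 3) and 6.68, 5.83, and 9.33 in *ob/ob* 1, 2, and 3 (7.28 ± 1.83, SD, n = 3). All *ob/ob* arrays were above all controls, but *ob/ob* 2 exceeded control 1 by only 0.08 and *ob/ob* 3 stood far above the rest. The difference was 2.07 (SE 0.93, 95% interval -0.16 to 4.31) with an unadjusted p of 0.0641 and an adjusted p of 0.99999 (limma). Without *ob/ob* 3 alone the difference was 1.05, and without control 3 and *ob/ob* 3 it was 1.097, or 2.14-fold (limma adjusted p = 0.0667).

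The *Lep* probe was printed 10 times on each array, which gives the spread of reading within an array. Each sample was on 1 array, so the spread between arrays holds labeling, hybridization, and scan together with the difference between samples. After spots with an outlier flag were left out, 9 or 10 spots per array remained. The SD over the spots of an array was between 0.046 and 0.17 on the log2 scale, compared with 0.59 between control arrays and 1.83 between *ob/ob* arrays. The spots of *ob/ob* 3 had a median signal of 673 before normalization, against 89.9 and 73.2 on *ob/ob* 1 and 2 and 88.9, 43.7, and 29.7 on control 1, 2, and 3. The high value of *ob/ob* 3 was thus read alike by every spot of that array. Before normalization *ob/ob* 1 lay close to control 1 and *ob/ob* 2 below it, so that the lack of overlap for *Lep* holds only after the arrays are put on a common scale.

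**Figure D2:**
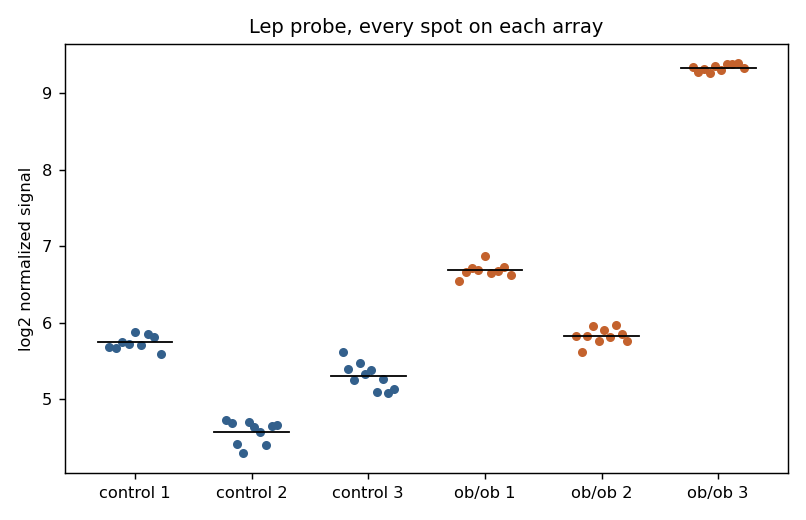
Every spot of the *Lep* probe on the 6 arrays, in log2 normalized signal, with each array's spots shifted to its normalized mean (black line). Spots of an array lie close together, with an SD of at most 0.17, and the 10 spots of *ob/ob* 3 lie apart from all others.

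*Lepr*, the leptin receptor, has 4 probes that map to the gene. The brightest read 8.10, 8.46, and 8.17 in the controls and 7.67, 7.96, and 6.46 in *ob/ob* arrays. It was lower in every *ob/ob* array, though control 1 and *ob/ob* 2 lay only 0.14 apart. The difference was -0.88 (SE 0.47) with an unadjusted limma p of 0.109, and -0.46 without control 3 and *ob/ob* 3. The further 3 probes were dimmer and differed by -0.04, -0.06, and 0.19, each with overlap, so the lower signal was seen by 1 probe of 4. Receptor isoforms differ at their 3′ end. The array assigns the brightest and the dimmest probe, with differences of -0.88 and 0.19, to the same transcript. Which isoform each probe reads was not tested.

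*Apln*, the ligand of a receptor on vessel and heart cells, read 5.34, 4.20, and 5.05 in the controls and 5.90, 5.94, and 7.50 in *ob/ob* iBAT. The groups were 0.56 apart at their nearest arrays, the clearest gap among the 9 genes. The difference was 1.58 (SE 0.57, 95% interval 0.19 to 2.97) with an unadjusted limma p of 0.0314. It was 1.15 without control 3 and *ob/ob* 3 (limma adjusted p = 0.0309, in a fit that called 22.8% of all probes higher). *Apln* was the 1 gene of 9 that was at least 2-fold higher at an unadjusted p under 0.05, which 1.69% of all probes tested were. It no longer met that rule when control 2 was left out (difference 1.25, limma p of 0.109) or when control 3 was left out (1.67, limma p of 0.0534).

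*Retn*, which encodes resistin, read 10.05, 10.80, and 7.86 in the controls and 7.77, 7.39, and 7.60 in *ob/ob* iBAT by its brighter probe. The *ob/ob* arrays stayed within 0.38 of each other, and control 3 lay just 0.09 above the highest of them. The difference was -1.98 (SE 0.76, 95% interval -3.82 to -0.14) with an unadjusted limma p of 0.0385. *Retn* was the 1 gene of 9 at least 2-fold lower at that p, as were 1.35% of all probes. Leaving out any 1 array other than control 3 raised that p to between 0.0730 and 0.118, and leaving out control 3 gave a difference of -2.84. The difference without control 3 and *ob/ob* 3 was -2.85, or 7.19-fold lower (limma adjusted p = 0.000181, in a fit that called 23% of all probes lower). Its other probe read 7.96, 8.25, and 5.80 in the controls and 5.30, 5.08, and 7.02 in *ob/ob* arrays, a difference of -1.54 (SE 0.83). Here *ob/ob* 3 lay above control 3, so the probes of *Retn* disagreed on *ob/ob* 3 and only 1 of them separated the groups.

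*Cfd*, which encodes adipsin, read 13.78, 14.14, and 10.32 in the controls and 8.72, 8.56, and 11.67 in *ob/ob* arrays. Control 3 and *ob/ob* 3 overlapped, and the other controls lay far above the other *ob/ob* arrays. The difference was -3.09 (SE 1.29, 95% interval -6.21 to 0.03), the largest in size among the 9 genes, with an unadjusted limma p of 0.0514. Without control 3 and *ob/ob* 3, *Cfd* was 39.8-fold lower (limma adjusted p = 1.28e-05, in a fit that called 23% of all probes lower).

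*Adipoq* read 11.60, 11.13, and 8.63 in the controls and 9.53, 8.71, and 13.11 in *ob/ob* iBAT. The lowest array was a control and the highest was *ob/ob*, and the difference of the means was -0.0037 (SE 1.33, 95% interval -3.22 to 3.21). That interval is wide on both sides of 0, so the equal means do not show equal expression. Leaving out 1 array at a time moved the difference from -1.34 (without *ob/ob* 3) to 0.87 (without *ob/ob* 2). Without control 3 and *ob/ob* 3, *Adipoq* was 4.74-fold lower in *ob/ob* iBAT (limma adjusted p = 0.0008, in a fit that called 23% of all probes lower).

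*Rbp4*, the carrier of retinol in plasma, read 9.74, 9.10, and 6.08 in the controls and 5.12, 4.29, and 9.79 in *ob/ob* arrays, with *ob/ob* 2 not well above background. It had the widest span of the *ob/ob* arrays, 5.50, and a difference of -1.91 (SE 1.65) with an unadjusted limma p of 0.291. Without control 3 and *ob/ob* 3, it was 26.2-fold lower, with 1 of the 2 *ob/ob* arrays left well above background. *Nampt*, which makes the NAD precursor nicotinamide mononucleotide inside cells and is also secreted, read 7.23, 6.91, and 4.90 in the controls and 6.38, 6.26, and 8.79 in *ob/ob* arrays. Its difference of 0.79 (SE 0.92, limma p of 0.419) turned to -0.03 without *ob/ob* 3 and to -0.75 without control 3 and *ob/ob* 3. *Rarres2*, which encodes the chemoattractant chemerin, read 9.96, 9.64, and 9.19 in the controls and 8.84, 9.11, and 11.35 in *ob/ob* arrays. Its difference of 0.17 (SE 0.71, limma p of 0.821) turned to -0.62 without *ob/ob* 3, -0.03 without control 3, and -0.82 without both. *Rbp4*, *Nampt*, and *Rarres2* overlapped between groups, and *ob/ob* 3 was the highest array for each.

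**Figure D3:**
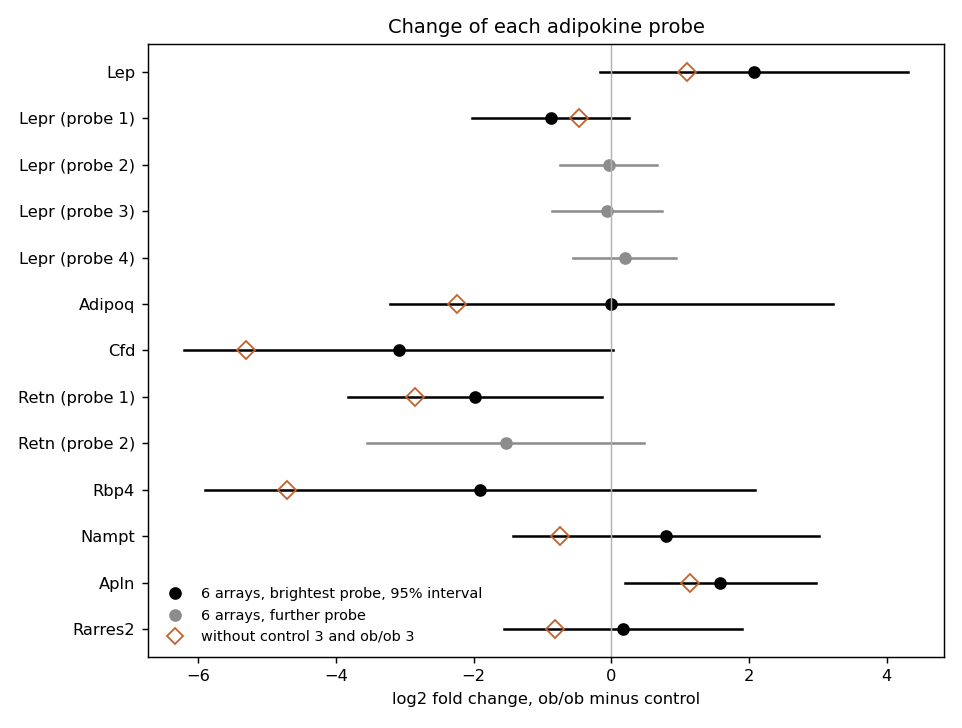
The log2 fold change (*ob/ob* minus control) of each probe of the 9 genes. Filled points with lines are the estimates over 6 arrays with 95% intervals (black for a gene's brightest probe, gray for further probes), and open diamonds are the brightest probe without control 3 and *ob/ob* 3. The intervals of *Apln* and of the brighter *Retn* probe leave out 0. The diamonds of *Lep* and *Apln* lie above 0 and those of all other genes below 0, *Adipoq*, *Nampt*, and *Rarres2* included.

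Over the 9 genes, the median difference was -0.0037, compared with -0.07 over all probes tested, and 4 of 9 differences were above 0, as were 43.6% of all. Without overlap, 2 of 9 were higher (3.74% of all probes) and 2 of 9 were lower (4.19%). Arrays of the same group differed more for these genes than for most: the median SD was 1.26 among controls and 1.42 among *ob/ob* arrays, compared with 0.48 and 0.72 over all probes. *ob/ob* 3 was above both other *ob/ob* arrays for 7 of 9 genes (37.4% of all probes) and the highest of all 6 arrays for 6 of 9 (27.6%). Control 3 was below both other controls for 6 of 9 (34.8%). *Lepr* went the other way, with *ob/ob* 3 its lowest array, as for 43.1% of all probes.

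Without control 3 and *ob/ob* 3, 2 of 9 genes were higher without overlap (40.5% of all probes) and 7 of 9 lower (32.6%). An unadjusted limma p under 0.05 was met by 8 of 9 (52% of all probes), and with a 2-fold difference by 2 as higher (16.6%) and 4 as lower (19.2%). The adjusted p was under 0.05 in limma for *Apln* as a higher gene (22.8% of all probes were called higher) and for 6 of 9 genes as lower (23% of all probes), namely *Adipoq*, *Retn*, *Rarres2*, *Cfd*, *Rbp4*, and *Nampt*. *Lep* and *Lepr* did not pass. These arrays were left out because they resembled the other group, which narrows the spread within groups by construction, and the shares of all probes called show it. The values describe 4 arrays and are no independent test.

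Control 1, control 3, and *ob/ob* 1 were scanned together, and each other array had a scan of its own. With the scan as a block, the difference rests on those 3 arrays, *ob/ob* 1 minus the mean of control 1 and control 3. It was 1.16 for *Lep*, 0.71 for *Apln*, -0.47 for *Lepr*, -1.19 for *Retn*, -3.32 for *Cfd*, -0.59 for *Adipoq*, -2.79 for *Rbp4*, 0.31 for *Nampt*, and -0.74 for *Rarres2*. For the 4 genes without overlap the direction is fixed by that lack of overlap, and their unadjusted p in this limma fit was between 0.332 and 0.691. The *Cfd* difference had an unadjusted p of 0.0258 there and an adjusted p of 0.99998. The spread in this fit comes from control 1 and control 3 alone, so its p values rest mostly on the variance that limma shares over all probes.

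The median of the 10 adipocyte markers moved from array to array in nearly the order of *Adipoq*. Each gene was therefore also set against that median on the same array, a comparison chosen after the values were seen. The markers were *Plin1*, *Fabp4*, *Cidec*, *Lpl*, *Lipe*, *Pnpla2*, *Cd36*, *Dgat2*, *Agpat2*, and *Gpd1*. Relative to these markers, *Lep* read -6.17, -6.71, and -3.90 in the controls and -2.72, -3.32, and -3.36 in *ob/ob* iBAT. The *ob/ob* arrays now lay within 1 log2 unit of each other, *ob/ob* 3 no longer stood apart, and the groups did not overlap (difference 2.46). In turn, control 3 now stood apart from the other controls and near *ob/ob* 3. The SD among controls was 1.49 on this scale, compared with 0.59 before the markers were subtracted. *Nampt* read -4.68, -4.37, and -4.29 in the controls and -3.02, -2.89, and -3.90 in *ob/ob* arrays, also without overlap (difference 1.18). *Lep* and *Nampt* were thus the 2 of 9 genes higher without overlap on this scale (2.92% of all probes). Before subtraction, *Nampt* overlapped, and it differed by -0.75 without control 3 and *ob/ob* 3. The marker median was 9.40 and 9.15 on *ob/ob* 1 and 2, against 11.91 and 11.29 on control 1 and 2. The lack of overlap for *Nampt* therefore comes from the markers subtracted.

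*Cfd* read 1.86, 2.85, and 1.12 in the controls and -0.68, -0.59, and -1.02 in *ob/ob* arrays relative to the markers. It was the 1 gene of 9 that was lower without overlap (1.29% of all probes), with a difference of -2.70, and the overlap through control 3 and *ob/ob* 3 was gone. Before subtraction *Cfd* read 10.32 on control 3 and 11.67 on *ob/ob* 3, where the marker median was 9.20 and 12.69. The lack of overlap for *Cfd* therefore also comes from the markers subtracted. *Adipoq* read between -0.56 and 0.43 over the 6 arrays on this scale and differed by 0.38, with overlap. *Apln*, *Retn*, and *Lepr* overlapped on this scale, with differences of 1.97, -1.60, and -0.49. *Rbp4* and *Rarres2* also overlapped, with differences of -1.52 and 0.56. The smallest p an exact permutation test can give, 0.10, was that of *Lep*, *Nampt*, and *Cfd*.

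**Figure D4:**
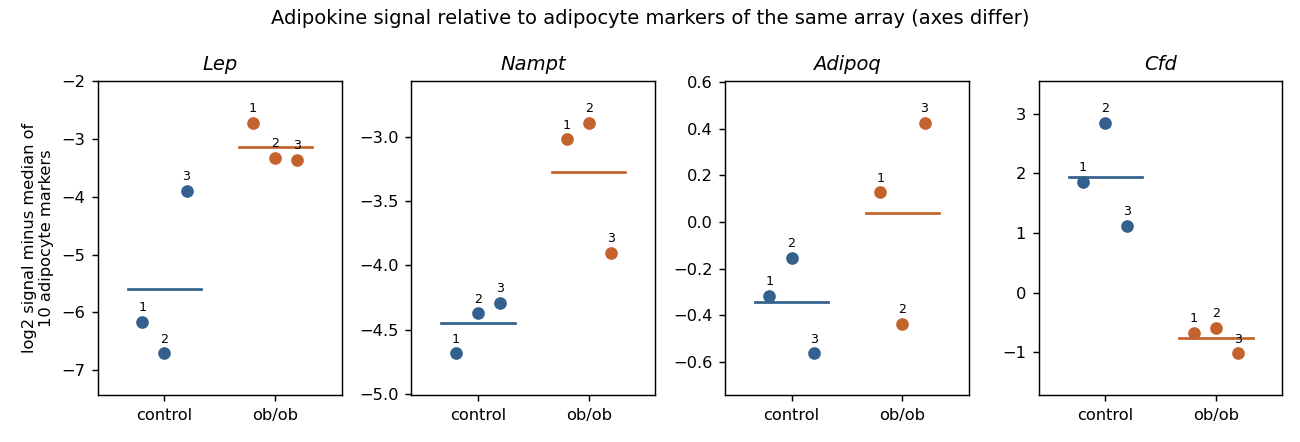
The log2 signal of *Lep*, *Nampt*, *Adipoq*, and *Cfd* minus the median log2 signal of 10 adipocyte markers of the same array. Points are arrays with their replicate numbers, lines are group means, and axes differ between panels. *Lep* and *Nampt* are higher and *Cfd* lower in *ob/ob* without overlap, and *Adipoq* overlaps.

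The markers of other cells give the setting of these values. None of the 10 adipocyte markers passed an unadjusted p under 0.05 with a 2-fold difference, and their median difference was -0.58. Of 10 brown adipocyte markers, 3 were lower by that rule (*Ppargc1a*, *Elovl3*, and *Zic1*) and none higher, with a median difference of -2.07. *Elovl3* was not well above background on any *ob/ob* array. Of 10 white adipocyte markers, *Sncg* was higher by 2.27, but 5 lay above 0 and 5 below, with a median of 0.09. Of 9 macrophage markers on the array, *Trem2*, a receptor of lipid-laden macrophages, was higher by 2.25, and the median of the list was 0.56. Of 10 muscle genes, *Mylpf* was higher by that rule, while the median difference was -1.07. Of 10 lymphocyte markers, *Ms4a1* was higher by the rule, 6 lay below 0 (*Cd3e* and *Cd8a* without overlap), and the median was -0.09. Of 8 hepatocyte markers, *Apoa2* was lower and the median was -0.51. No marker of endothelial cells, stromal cells, or erythrocytes met the rule (median differences -1.08, -0.37, and -0.37). The median differences without control 3 and *ob/ob* 3 were -1.76 for adipocyte, -2.99 for brown adipocyte, 0.28 for white adipocyte, 0.22 for macrophage, and -3.02 for muscle genes. They were -1.91 for endothelial, -2.34 for stromal, 0.31 for lymphocyte, -0.79 for erythrocyte, and 0.33 for hepatocyte genes. Muscle genes had their highest median on *ob/ob* 3, as *Lep*, *Adipoq*, *Rbp4*, *Nampt*, *Apln*, and *Rarres2* did. The part of these other cells in the adipokine values was not tested.

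A further 125 genes act with the 9 as receptors, partners, paralogs, proteases, or transcription factors, or are other secreted factors of fat. Of these, 124 were on the array and 118 were tested. By an unadjusted limma p under 0.05 with a 2-fold difference, 2 were higher and 3 lower, or 1.69% and 2.54%, compared with 1.69% and 1.35% of all probes, and none passed an adjusted p under 0.05. Their median difference was -0.02. Leaving out 1 array gave 1 to 5 higher and 1 to 10 lower genes, with the most calls without *ob/ob* 3 (5 and 10) and without control 3 (4 and 8). The share of higher genes was thus close to that over the whole array.

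In leptin signaling, 2 of 13 genes tested were lower and none higher. *Cish*, an inhibitor of cytokine receptors, read 11.16, 10.60, and 7.38 in the controls and 5.52, 5.44, and 8.72 in *ob/ob* arrays, a difference of -3.15 (SE 1.30, limma p of 0.0497) with overlap. *Irs1*, the insulin receptor substrate, read 7.83, 8.22, and 7.35 in the controls and 6.71, 7.19, and 6.10 in *ob/ob* arrays, 2.20-fold lower without overlap (difference -1.14, limma p of 0.0366). Both were called in only 2 of 6 fits that left out 1 array, *Cish* without control 3 or *ob/ob* 3 and *Irs1* without control 3 or *ob/ob* 2. *Cish* differed by -5.40 and *Irs1* by -1.08 without control 3 and *ob/ob* 3. *Socs3*, the feedback inhibitor that leptin induces, differed by -1.26 with overlap (limma p of 0.498). *Leprot*, which shares its start with the receptor gene, differed by -0.79 (limma p of 0.595).

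Among 11 genes of adiponectin assembly and signaling, *Appl1*, the adaptor that binds the adiponectin receptors, was higher by 1.76 without overlap (5.004, 4.22, and 3.02 in the controls and 5.34, 5.14, and 7.04 in *ob/ob* arrays, limma p of 0.0486), a call kept in 2 of 6 fits that left out 1 array. Its probe was not well above background on control 3. The difference was 1.16 without *ob/ob* 3 and to 0.63 without control 3 and *ob/ob* 3 (limma adjusted p = 0.126). The receptors *Adipor1* and *Adipor2* differed by 0.43 (SE 0.60) and -0.55 (SE 0.95), and the binding protein *Cdh13* by -0.29 (SE 0.37). None of 11 adiponectin paralogs passed. *Retnla*, a resistin-like gene of macrophages, differed by -2.35 (SE 1.26, limma p of 0.109), with *ob/ob* 3 at 9.55 and the other *ob/ob* arrays at 5.92 and 5.80.

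None of the 10 complement genes tested passed, including *C3* (-0.93, SE 0.78) and *Cfb* (0.30, SE 1.002), which encodes factor B, the substrate of adipsin. The same held for 10 genes of retinol transport, with the retinol binding protein receptor *Stra6* at 0.74 (SE 0.70), and for 12 genes of NAD salvage. The apelin receptor gene *Aplnr* differed by 0.14 (SE 0.37). For chemerin, the receptor gene *Cmklr1* differed by 0.14 (SE 0.32) and *Ccrl2* by 0.32 (SE 0.74), and *Gpr1* was detected on 1 array and not tested. *Pparg* and *Cebpa*, the factors that drive adipocyte genes, differed by -0.03 (SE 0.64) and 0.95 (SE 0.67), and none of 9 transcription factors tested passed. No receptor of an adipokine that was tested passed the unadjusted threshold.

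Of 21 other secreted factors, *Vegfa*, which drives vessel growth, read 8.02, 8.56, and 7.97 in the controls and 6.77, 6.76, and 6.05 in *ob/ob* iBAT. It was 3.16-fold lower without overlap (difference -1.66, SE 0.37, limma p of 0.00391), and the *ob/ob* arrays lay at least 1.20 below the lowest control. With each array left out in turn, the difference stayed between -1.78 and -1.42, and the unadjusted p was at most 0.0233. It was -1.53 without control 3 and *ob/ob* 3. *Ccn4*, a secreted matricellular protein, was not well above background on any control array and was detected on all 3 *ob/ob* arrays. It was at least 2.30-fold higher, as the *ob/ob* mean over the higher of each control array's own signal and its lowest well detected signal (adjusted p = 0.99999, limma). It was also not well above background on the controls that remained without control 3 and *ob/ob* 3, where the fitted difference was 2.77 and is no bound.

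**Figure D5:**
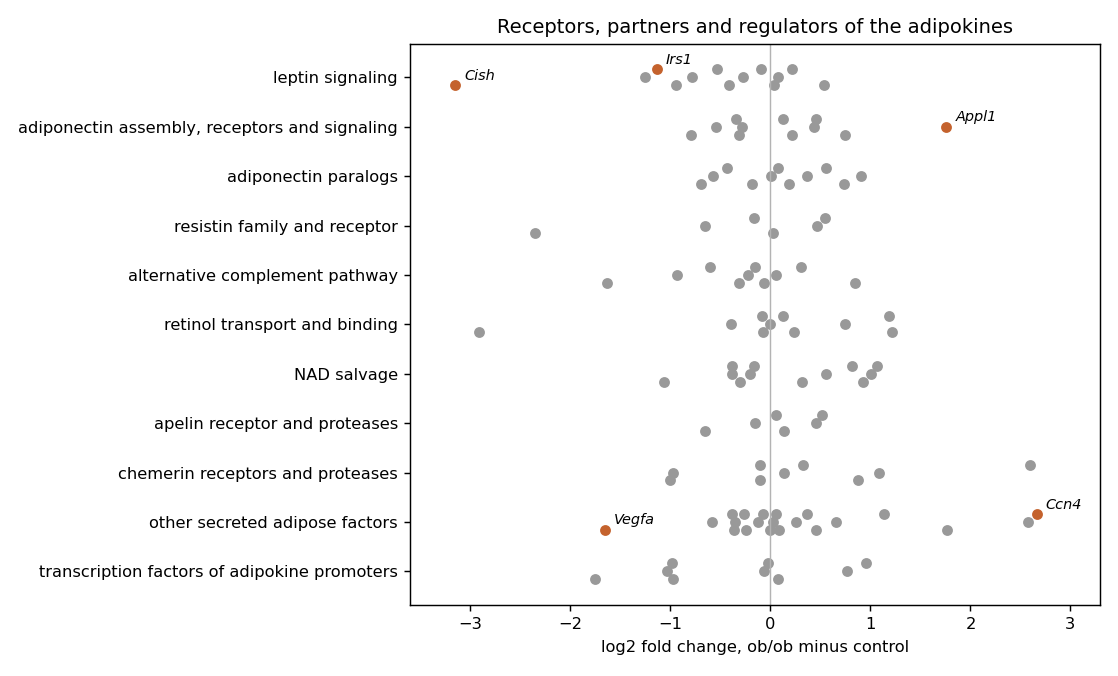
The log2 fold change (*ob/ob* minus control) of the 118 pathway genes tested, by list, with 1 point per gene. They act with the adipokines or are other secreted factors. Colored points with names are the 5 genes past an unadjusted p under 0.05 with a 2-fold difference; *Ccn4* was not above background in the controls, so its point depends on signals there. The other genes are in gray, on both sides of 0.

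Genes with the profile nearest to *Lep* over the 6 arrays were sought among 15884 genes detected on all arrays, by the root mean square difference of log2 signals after each gene was centered on its own mean. The nearest were *Inhbb*, the subunit of activin B (0.34), *Gm14548* (0.44), *Chil3*, a chitinase-like protein of macrophages (0.45), *Cstdc4* (0.45), and *Rab32* (0.51). *Inhbb* read 6.02, 5.02, and 5.49 in the controls and 6.44, 6.37, and 8.93 in *ob/ob* arrays, a pattern that follows from how it was chosen. *Cstdc4* belongs to a family of near-identical genes, and its value is uncertain. The profiles nearest to *Adipoq* were much closer: among the 5 nearest, *Tmem9b*, *Sar1a*, and *Ppp4r1* lay at 0.12, 0.13, and 0.16. *Sar1a*, a GTPase of vesicle export from the endoplasmic reticulum, read 11.20, 10.64, and 7.99 in the controls and 8.82, 8.27, and 12.77 in *ob/ob* arrays. Its low control 3 and high *ob/ob* 3, as in *Adipoq*, follow from how it was chosen.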

How the data were processed

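RNA of 3 control and 3 *ob/ob* iBAT samples was hybridized to 6 arrays. For each array the authors deposited spot intensities as read and background-corrected by Agilent Feature Extraction (version 11.0.1.1 in the submitters' processing notes), without normalization between arrays. The authors also deposited log2 values, quantile normalized in GeneSpring, which served as an alternative and correlated at 0.987 to 0.998 with the scanner values. Arrays carry no counts, so their number limits the precision.

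The log2 of the processed intensity was averaged over a probe's spots without outlier flags and then quantile normalized. The 35448 probes well above background on at least 3 of 6 arrays entered a limma fit (limma 3.58.1, R 4.3.3) with Benjamini-Hochberg adjustment over all of them. Of 39429 probes, 104 were left out for outlier flags. RefSeq (GRCm38.p6) gave a symbol to 27234 of the 28684 probes that carry a RefSeq accession. The array's annotation uses another build, so coordinates are given only for RefSeq promoters.

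The 9 genes, the pathway and marker lists, and the tests were chosen with earlier results of these data known. All 9 genes are named by their brightest probe. Pathway genes are named where they differed by at least 2-fold with an unadjusted p under 0.05, together with receptors and direct partners. Some genes that these rules and lists cover are not reported here. The 19 alternatives cover scaling, background, detection, test, weights, blocks, left-out arrays, the mean of a gene's probes, and, added after the data were seen, the scale relative to adipocyte markers. Replicate numbers did not pair the arrays (correlation of deviations -0.78, -0.66, and -0.85).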

Additional observations from a re-analysis of the deposited data

How the results depend on the processing

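Over the 19 alternatives, *Cfd* kept its direction, as did *Rbp4* over the 18 that could be run (it was not detected on all 6 arrays). *Lep*, *Lepr*, *Retn*, and *Apln* did too, but their lack of overlap fixes the sign with arrays left out or the scan as a block. For every gene, *Cfd* and *Rbp4* included, other tests, filters, and the replicate block leave the difference as it is by construction. The mean of a gene's probes does the same for *Cfd* and *Rbp4*, which have 1 probe each. These alternatives could not change the direction. The log2 differences ranged from 1.05 to 2.80 for *Lep*, -1.18 to -0.20 for *Lepr*, -3.03 to -1.19 for *Retn*, -5.41 to -2.39 for *Cfd*, 0.70 to 1.97 for *Apln*, and -4.71 to -0.85 for *Rbp4*. *Adipoq* had no stable sign: it read 0.018 with the authors' normalized values, 0.38 relative to the adipocyte markers, and -1.34 to 0.87 with 1 array left out. *Rarres2* turned to -0.80 with array quality weights, -0.74 with the scan as a block, and -0.82 without control 3 and *ob/ob* 3, and spanned -0.62 to 0.63 with 1 array left out. *Nampt* turned to -0.53 with array weights and -0.75 without control 3 and *ob/ob* 3, and spanned -0.028 to 1.23 with 1 array left out.

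The counts at an unadjusted p under 0.05 with a 2-fold difference were 1 higher and 1 lower among the 9 genes and 2 higher and 3 lower among pathway genes. With normexp background correction they were 0 and 0 for the 9 genes and 0 and 1 for pathway genes. With the methods' t-test they were 0 and 0 for the 9 genes, with 1 higher pathway gene. With the scan as a block, 0 of the 9 genes and 0 pathway genes were higher, and the 1 lower gene was *Cfd* (unadjusted p of 0.0258) and no longer *Retn* (0.354). With an intensity trend and robust estimation, 0 of the 9 genes were lower, and with detection on all 6 arrays, 0 pathway genes were higher. With the mean of a gene's probes, 0 of the 9 genes were lower without overlap, and the 1 lower gene was *Cfd* (0.0496) and not *Retn* (0.0555). The replicate number as a block gave 0 and 0 for the 9 genes and 1 and 1 for pathway genes. The numbers do not pair the arrays, and no array correlated best with its own number.

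Array quality weights gave 2 higher and 4 lower of the 9 genes and 10 higher and 33 lower pathway genes, with an adjusted p under 0.05 for 2 higher and 7 lower of the 9 genes. The weights spanned 0.0178 to 1260, so these fits rest on few arrays. The share of all probes called with these weights was not computed, so the counts show nothing particular to these genes. Without control 3 and *ob/ob* 3, the counts were 2 and 4 for the 9 genes and 10 and 39 for the 118 pathway genes tested. By the same rule 16.6% of all probes were higher and 19.2% lower. Of the 9 genes, 7 were lower without overlap (32.6% of all probes). The adjusted p was under 0.05 in limma for 1 higher gene (22.8% of all probes) and 6 lower genes (23%). With 1 array left out, the 9 genes gave 0 to 2 higher and 0 to 2 lower, 2 to 5 lower without overlap, and none with an adjusted p under 0.05, and the pathway genes gave 1 to 5 higher and 1 to 10 lower. The cause of these shifts was not tested.

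Scaling to the 75th percentile moved the median of all probes from -0.07 to -0.33. Relative to that median, *Lep* was 2.46, *Apln* 1.90, *Nampt* 1.22, *Rarres2* 0.56, *Adipoq* 0.14, *Lepr* -0.78, *Rbp4* -1.33, *Retn* -1.64, and *Cfd* -2.44. No sign differed between this scaling and quantile normalization, with or without that median subtracted. With 3 arrays per group, differences of the size seen for *Nampt* and *Rarres2* lay within the spread between arrays.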
